A study of Mus musculus with 12 samples.

Results

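Endothelial and endocardial genes were followed between 2 parts of the mouse embryonic heart region. The group held 34 genes listed by name, chosen as known genes of the lining of blood vessels and of the heart, and each was found as a row of the deposited comparison table, so they were 34 of 21563 genes. All 34 passed the minimum mean of 5 and were tested. The tissues were the heart tube (HT) and the posterior part of the second heart field (pSHF) of wild-type CD1 embryos at E10.0, with 6 libraries of each tissue and no treatment or mutant allele in either group. The HT is the looping heart with its muscle wall and its inner lining, and the pSHF is mesoderm behind it that supplies cells to the atria and their septum. Per the labels both tissues were cut from the same embryo. The labels do not say whether embryos were pooled, so p-values speak only of the spread among these 12 libraries, which may be technical. Because whole dissected tissue was sequenced, fewer endothelial cells and less of an RNA per endothelial cell cannot be told apart from a gene's level alone.

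Endothelial cells line every vessel, and the endocardium is the specialised endothelium that lines the heart. Both lineages use VEGF receptors to form and grow, angiopoietin receptors to mature, and receptors for BMP9 and BMP10 to control vessel calibre. ETS and SOXF transcription factors set the shared programme. NFATC1 marks the endocardium and is needed for heart valves, and claudin-5 seals the tight junctions of vessels.

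Values are normalized gene counts, the deposited per-library signal that is scaled between libraries. Each fold change divides HT by pSHF, on the log2(value + 1) scale, and comes from limma, and a gene is called when its adjusted p over all genes tested is below 0.05. Depth, rebuilt from the values, ran from 20634500 to 25645400 reads in HT and from 19089500 to 26287100 in pSHF. Erythroid genes held 1.66 to 7.09% of the values in HT and 0.349 to 0.688% in pSHF. The 10 heart muscle genes summed to 689455 to 842446 in HT and 22521 to 52826 in pSHF. The defining endothelial genes Pecam1, Cdh5, Tie1 and Kdr were well above 0 in every library of both tissues.

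The 34 genes were found in both tissues and did not differ as one block. Of the 34, 32 were called (78.3% of all genes tested were): 21 were called higher in HT and 11 higher in pSHF, while Egfl7 and Erg passed in neither direction. Across all genes tested 38.3% were called higher in HT and 40.0% higher in pSHF. Their median log2 fold change was 0.33, against -0.02 over all genes tested. Libraries of the tissues did not overlap for 27 of the 34, 18 with HT above and 9 with pSHF above, where 60.5% of all genes tested showed no overlap (30.1% with HT above and 30.3% with pSHF above). Differences of more than 2-fold were found for 11 genes toward HT and 5 toward pSHF, with 13.4% and 13.6% as the shares over all genes tested. When libraries were instead set to equal totals, the median of all genes tested shifted by -0.25 and that of the members fell to 0.09, and 16 members were called higher in HT and 13 in pSHF, against 26.3% and 54.7% of all genes.

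**Figure D1:**
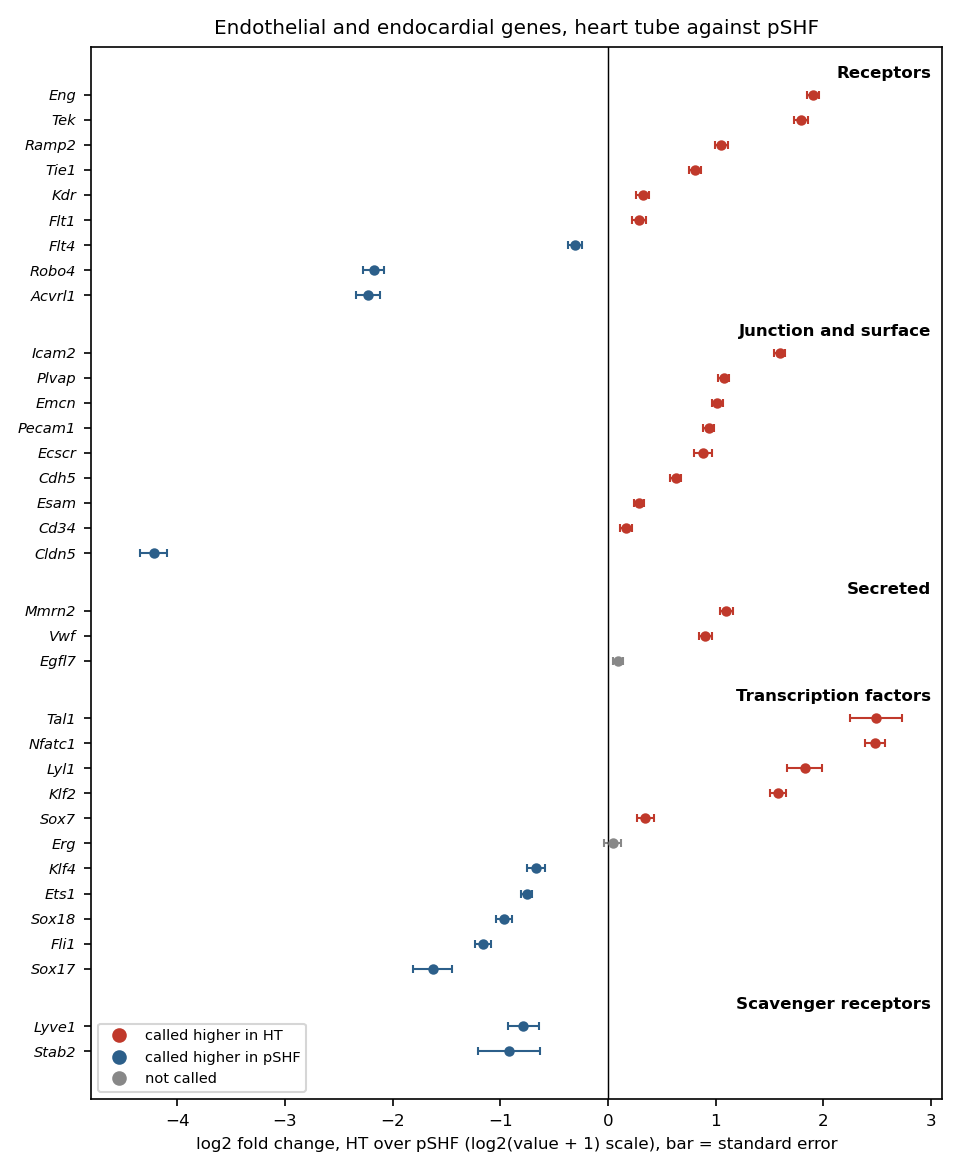
Log2 fold change of each of the 34 genes, HT over pSHF, by role, with the SE from limma as the bar and colour for the call. The genes run from Cldn5 at -4.22 to Tal1 at 2.49, and both ends hold genes whose libraries did not overlap.

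Among receptors, Eng and Acvrl1, both for BMP9 and BMP10, differed in opposite directions. Eng (mm10 chromosome 2, 32646595 to 32682669), the co-receptor endoglin, lay between 4674 and 5561 in HT (median 5108) and between 1255 and 1529 in pSHF (median 1353). Its libraries did not overlap, and HT was 3.75-fold higher, at a log2 fold change of 1.91 (SE 0.057, adjusted p = 2.1e-13) in limma. On the deposited raw counts, Eng differed by only 0.23 on the log2 scale and was not called (adjusted p = 0.261 in edgeR). Acvrl1 (chromosome 15, 101128522 to 101145336), the signalling receptor ALK1 that endoglin partners, lay between 79.8 and 128 in HT (median 102) and between 424 and 586 in pSHF (median 477). Every pSHF library stood above every HT library, and pSHF was 4.70-fold higher, at a log2 fold change of -2.23 (SE 0.112, adjusted p = 6.5e-11). Within each library, Acvrl1 amounted to 1.70 to 2.35% of Eng in HT and to 31.1 to 43.6% in pSHF. Acvrl1 shares 127 exon bases with an antisense gene, Gm16031, and the labels do not settle whether reads were assigned by strand. The other receptor genes listed for these ligands, Bmpr2 (-0.15), Acvr2a (-0.41) and Acvr2b (-0.65), were called toward pSHF. Of the ligands, Bmp10, made by heart muscle, averaged 777 ± 71.9 in HT against 28.6 ± 4.82 in pSHF (mean ± SD, n = 6 libraries; log2 fold change 4.72). Gdf2, which encodes BMP9, averaged 12.9 ± 4.18 in HT against 23.1 ± 13.2 in pSHF and did not pass (adjusted p = 0.11 in limma), though with equal library totals it did, higher in pSHF (-0.89, adjusted p = 0.034).

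The angiopoietin receptors were both higher in HT, by different amounts. Tek (chromosome 4, 94739289 to 94874976), which encodes the angiopoietin receptor TIE2, lay between 3349 and 4296 in HT (median 3749) and between 958 and 1238 in pSHF (median 1090.4). The 2 tissues did not overlap, and HT was 3.46-fold higher, a log2 difference of 1.79 with an SE of 0.062 (adjusted p = 8.8e-13 in limma). Tie1, its partner receptor with no ligand of its own, lay between 3399 and 4176 in HT and between 1929.5 and 2309 in pSHF, differing by 0.81 on the log2 scale. The activating ligand gene Angpt1 averaged 2830.3 ± 201 in HT against 1074 ± 120.1 in pSHF (1.40). The context-dependent antagonist gene Angpt2 averaged 64.9 ± 28.0 in HT against 288 ± 30.5 in pSHF (-2.26), and Ptprb, the phosphatase that restrains TIE2, averaged 1319 ± 78.2 in HT and 723 ± 79.0 in pSHF (0.87). All of these passed, and Angpt1 and Angpt2 differed in opposite directions.

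The VEGF receptors differed least among the receptors. Kdr, the main signalling receptor VEGFR2, lay between 3574 and 4659.7 in HT and between 3097 and 3774 in pSHF, a log2 difference of 0.32 with an SE of 0.062. Flt1, the decoy receptor VEGFR1, lay between 1234 and 1577 in HT and between 1028 and 1283 in pSHF, differing by 0.29 on the log2 scale. Flt4, the VEGF-C receptor of veins and lymphatic vessels, lay between 660.1 and 838 in HT and between 801 and 1020.1 in pSHF, differing by -0.31 on the log2 scale. For all 3 genes the ranges of the tissues overlapped. All passed in limma, but with equal library totals Kdr and Flt1 did not (0.07 and 0.04), so these 2 calls rest on the scaling. Of the ligands and co-receptors, Vegfa averaged 3377 ± 291 in HT against 2788 ± 106 in pSHF (0.27 and, with equal totals, 0.03 with no call), Vegfb 1781 ± 155 and 812 ± 37.9 (1.13 and, with equal totals, 0.88), Vegfc averaged 335 ± 24.4 and 458 ± 37.5 (-0.45), and Pgf averaged 106 ± 7.99 and 305 ± 24.9 (-1.51). Vegfd, a ligand of the Flt4 product, averaged 32.3 ± 8.14 and 60.6 ± 17.5 (-0.88). Vegfa and Vegfb were called toward HT and Vegfc, Pgf and Vegfd toward pSHF. Nrp1, a VEGF-A co-receptor, was higher in HT (0.51), and Nrp2, which also binds VEGF-C, was higher in pSHF, at 1316 ± 121 in HT and 4608 ± 530.2 in pSHF (-1.80).

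Robo4 and Ramp2 completed the receptors. Robo4 (chromosome 9, 37401897 to 37415115), the endothelial member of the Roundabout receptors that stabilises vessels, lay between 78.4 and 123 in HT (median 104) and between 442 and 502 in pSHF (median 453). The groups did not overlap, and pSHF was 4.51-fold higher, at a log2 fold change of -2.18 (SE 0.096, adjusted p = 1.4e-11) in limma. Unc5b, whose product binds ROBO4, went the other way, at 7518 ± 549 in HT and 4292 ± 183 in pSHF (0.81). Ramp2, which turns the calcitonin receptor-like receptor into a receptor for adrenomedullin, lay between 1318 and 1695 in HT and between 667 and 798 in pSHF (1.05). Its annotated exons share 1103 bases with Vps25 on the same strand, so how reads were split between both genes is uncertain. The receptor gene Calcrl (0.41) and the ligand gene Adm (0.76) were also called higher in HT, and with equal totals Calcrl did not pass.

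**Figure D2:**
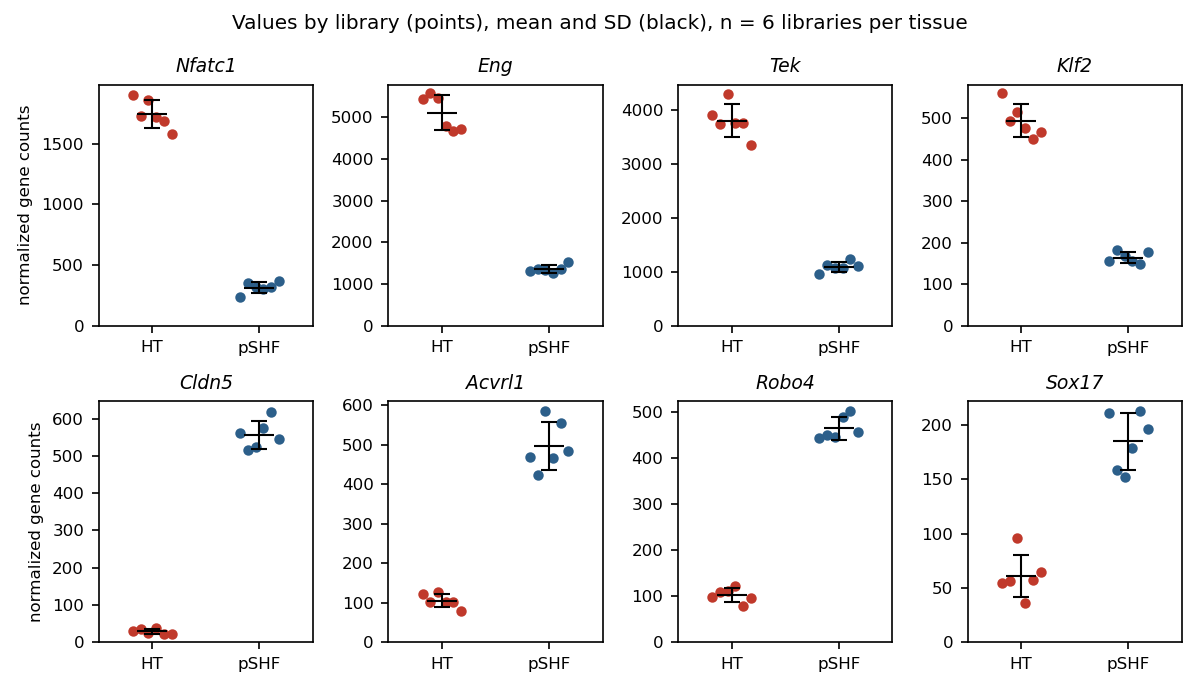
Normalized gene counts of 8 genes in each library (points) with the mean and SD in black, 6 libraries per tissue, each panel with its own axis from 0. Nfatc1, Eng, Tek and Klf2 stood higher in every HT library, and Cldn5, Acvrl1, Robo4 and Sox17 in every pSHF library.

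Adhesion and junction genes were higher in HT with 1 exception, Cldn5. Cldn5 (chromosome 16, 18776847 to 18778262), the tight junction claudin of vessels, lay between 23.7 and 38.1 in HT (median 27.4) and between 515 and 617 in pSHF (median 553). The gap between the tissues was many times the spread within either, and pSHF was 18.9-fold higher, at a log2 fold change of -4.22 (SE 0.127, adjusted p = 2.2e-13) in limma. Per library, Cldn5 amounted to 0.471 to 0.854% of Cdh5 in HT and to 17.1 to 20.1% in pSHF. Cdh5, VE-cadherin of the adherens junction, lay between 4135 and 5149 in HT and between 2841 and 3176 in pSHF, differing by 0.63 on the log2 scale. Pecam1, the general endothelial adhesion molecule CD31, lay between 2652 and 3361 in HT and between 1408 and 1656 in pSHF, differing by 0.93 on the log2 scale. Neither gene's groups overlapped. Genes of foregut epithelium, which forms tight junctions of its own, moved with Cldn5: 12 of 12 were higher in pSHF, from Nkx2-1 (-8.99) and Foxa1 (-7.52) to Krt18 (-0.33) and Krt8 (-0.28), with a sum of 1196 to 1723 in HT and 5666 to 7141 in pSHF. Of its defining genes, Cdh1 was at 3.05 to 39.1 in HT and 754 to 865 in pSHF, and Epcam at 7.81 to 27.6 and 738 to 931. Krt8 (749 ± 92.8) and Krt18 (661 ± 81.6) made up most of the HT sum. The foregut count, and those of the neural crest, erythroid, macrophage and hepatic lists below, stand beside the shares over all genes tested. These shares were 38.3% called higher in HT and 40.0% higher in pSHF. The part of the foregut genes in the Cldn5 difference was not tested.

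The other surface genes followed Pecam1 and Cdh5 in direction. Icam2, an adhesion molecule for leukocytes, lay between 663 and 706 in HT and between 217 and 251 in pSHF, 3.02-fold higher in HT (log2 difference 1.59, SE 0.05). Plvap, the diaphragm protein of fenestrae and caveolae, lay between 2863 and 3359 in HT and between 1350.0 and 1563 in pSHF (1.07), and the sialomucin gene Emcn between 1123 and 1368 in HT and between 564 and 643 in pSHF (1.02). Ecscr, a regulator of endothelial migration, was at 566 ± 71.7 in HT and 306 ± 28.3 in pSHF (0.88). The least different were the junctional adhesion gene Esam (714 ± 34.3 in HT and 585 ± 28.4 in pSHF, 0.29) and Cd34, a sialomucin also found on blood progenitors (1948 ± 140.0 and 1738 ± 122, 0.16). With equal totals neither passed, and Cd34 turned to -0.08. Cd34 shares 148 exon bases with an antisense gene, Gm16897.

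Of the secreted proteins, Mmrn2 and Vwf were higher in HT and Egfl7 passed in neither direction. Mmrn2, a matrix protein of the endothelium, lay between 1257 and 1621 in HT and between 666 and 749 in pSHF (log2 difference 1.10). Vwf, the clotting factor stored by endothelium and platelets, lay between 2085 and 2459 in HT and between 1037 and 1328 in pSHF (0.90). Egfl7, a secreted regulator of vessel tube formation, lay between 1483 and 1790.0 in HT and between 1479 and 1656 in pSHF, differing by 0.09 on the log2 scale with an SE of 0.046 (adjusted p = 0.082 in limma). Its difference was within the overlap of the groups and depended on scaling, with -0.15 under equal totals (adjusted p = 0.00863). Egfl7 shares 264 exon bases with Gm20532 on the same strand.

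Of the 11 transcription factor genes, 5 were called higher in HT, 5 in pSHF, and Erg in neither direction. Such a split lies near the shares over all genes tested, 38.3% and 40.0%. Nfatc1 (chromosome 18, 80606205 to 80713071), the endocardial factor, lay between 1582 and 1903 in HT (median 1722) and between 234 and 369.8 in pSHF (median 317). No libraries overlapped, and HT was 5.54-fold higher, at a log2 fold change of 2.48 (SE 0.09, adjusted p = 1.5e-12) in limma. Klf2, induced in endothelium by blood flow, lay between 449 and 560.3 in HT and between 148 and 182 in pSHF (1.58). Klf4, a related factor that is also expressed in epithelium, went the other way, between 233 and 305 in HT and between 361 and 497 in pSHF (-0.67).

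The SOXF genes Sox7, Sox17 and Sox18, which act together in vessel formation, did not share a direction. Sox7 lay between 545 and 725 in HT and between 434 and 544 in pSHF, differing by 0.35 on the log2 scale, the lowest HT library being only just above the highest pSHF library. With equal totals it did not pass (0.10). Sox17 lay between 36.6 and 95.8 in HT (median 56.9) and between 152 and 213 in pSHF (median 187), a log2 difference of -1.63 with an SE of 0.179. Sox18 lay between 181 and 259.8 in HT and between 422 and 479 in pSHF, differing by -0.97 on the log2 scale. For Sox17 and Sox18 every pSHF library stood above every HT library. Sox17 is also a factor of the endoderm, whose genes Foxa1 and Foxa2 stood at 1.03 ± 1.08 and 1.05 ± 1.16 in HT, against 334 ± 54.8 and 175 ± 27.4 in pSHF. Their part in its difference was not tested. Sox17 shares 804 exon bases with Gm37587 on the opposite strand.

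Of the ETS factors, Fli1 and Ets1 were higher in pSHF and Erg passed in neither direction. Fli1 lay between 339 and 415 in HT and between 761 and 952 in pSHF (log2 difference -1.16), and Ets1 between 2483 and 3089 in HT and between 4369 and 5006 in pSHF (-0.76). The groups did not overlap for either gene. Erg, the ETS factor most tied to endothelium, lay between 376 and 529 in HT and between 407 and 476 in pSHF, differing by 0.04 on the log2 scale (SE 0.082, adjusted p = 0.65 in limma). The HT range enclosed the pSHF range. With equal totals Erg was also called toward pSHF (-0.20, adjusted p = 0.037). Fli1 and Ets1 are also expressed in neural crest, and 7 of 8 neural crest genes were higher in pSHF, among them Tfap2b (-6.94), with 1 higher in HT, Ednrb (1.28). The list summed to 2503 to 3205 in HT and 3489 to 3915 in pSHF. Ednrb alone, at 2652 ± 225 in HT and 1089 ± 70.3 in pSHF, made up most of the HT sum. The part of neural crest genes in the Fli1 and Ets1 differences was not tested.

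Tal1 and Lyl1, factors shared by endothelium and blood precursors, were higher in HT and ordered by blood content there. Tal1 (chromosome 4, 115056426 to 115071755) lay between 1467 and 5385 in HT (median 2687) and between 439.7 and 600.5 in pSHF (median 481), a log2 difference of 2.49 with an SE of 0.24. Lyl1 lay between 419 and 918 in HT (median 547) and between 139.6 and 197 in pSHF (median 162), differing by 1.82 on the log2 scale. In HT both genes ranked the 6 libraries exactly as the erythroid share did, from MR25 (1.66%, Tal1 at 1467) to MR28R (7.09%, Tal1 at 5385). Their coefficients of variation in HT were 47.7% for Tal1 and 30.9% for Lyl1, against a median of 8.92% over the 34 genes. No other member varied as much as Tal1 in HT. Sox17 (32.0%) and Stab2 (31.4%) varied as much as Lyl1 there, and both were lowest in MR28R. Their HT means were far lower, at 61.0 for Sox17 and 31.3 for Stab2 against 607 for Lyl1. All 12 erythroid genes found were called toward HT, with a sum of 399631 to 1776010 in HT and 72200.2 to 142754 in pSHF. Among them were Ermap (3.25), Hba-a1 (2.97) and Epor (2.35). The difference of Tal1 and Lyl1 and that of blood content cannot be told apart. In pSHF, where the share was low and narrow, the order did not match.

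**Figure D3:**
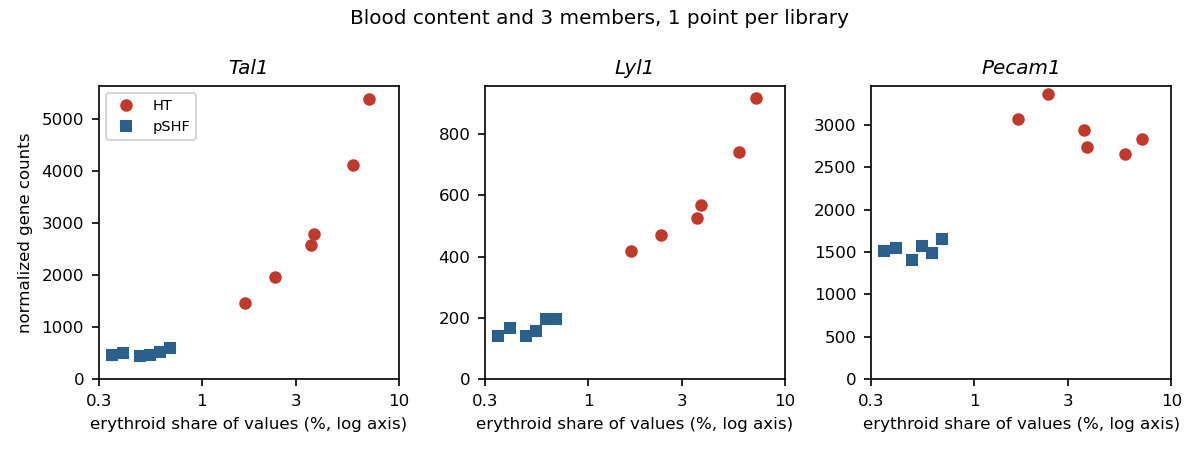
Normalized gene counts of Tal1, Lyl1 and Pecam1 against the erythroid share of all values (log axis), 1 point per library. Tal1 and Lyl1 rank the HT libraries as the erythroid share does, from 1.66 to 7.09%, while Pecam1 is lowest in MR30 at 2652.

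The scavenger receptor genes were low in both tissues and higher in pSHF. Lyve1, the hyaluronan receptor of lymphatic endothelium and some macrophages, lay between 72.9 and 106 in HT and between 117 and 217 in pSHF (log2 difference -0.79, SE 0.143). Stab2, the hyaluronan receptor of sinusoids, lay between 23.8 and 47.8 in HT and between 34.0 and 116 in pSHF (-0.92, SE 0.287, adjusted p = 0.0088 in limma), and its groups overlapped. It shares 141 exon bases with an antisense gene, Gm16268. Macrophage genes differed between the tissues in the same direction as both. All 8 found were higher in pSHF, from Fcgr3 (-2.28) and C1qb (-2.14) to Tyrobp (-1.40) and Csf1r (-1.36), with a sum of 228 to 348 in HT and 912 to 1241 in pSHF. Their part was not tested.

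Endocardial and vessel genes among the members were then set side by side. The endocardial genes were Nfatc1, Emcn, Klf2 and Klf4, and the vessel genes Cldn5, Sox17, Sox18, Robo4, Plvap, Vwf and Flt4. Of the endocardial genes 3 were called toward HT and 1 toward pSHF, with a median difference of 1.297 on the log2 scale. Of the vessel genes 2 were called toward HT and 5 toward pSHF, with a median of -0.97. Over all genes tested the shares were 38.3% and 40.0%. Per library, the median log2 level of the endocardial genes exceeded that of the vessel genes by 1.68 to 2.04 in HT, and the difference was -0.94 to -0.34 in pSHF. Plvap and Vwf (higher in HT) and Klf4 (higher in pSHF) went against the rest of their lists. These lists were chosen with results known, so no test was made of them. Per library, Nfatc1 amounted to 36.0 to 38.6% of Cdh5 in HT and to 8.24 to 11.8% in pSHF.

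A further fit set each gene against the mean log2 level of Pecam1 and Cdh5 in the same library. This removes the scaling of libraries and any difference common to these general endothelial genes. It lowers every fold change by the same 0.78, the mean log2 fold change of Pecam1 and Cdh5. The order of the genes is therefore that of their fold changes by level, and only the SEs and calls are new. Of the 32 other members, 11 were higher in HT relative to this reference and 18 were lower. Across all genes tested the shares were 12.4% and 75.7%. Those higher were Tal1 (1.71), Nfatc1 (1.70), Eng (1.12), Lyl1 (1.04), Tek (1.01), Icam2 (0.81), Klf2 (0.80), Mmrn2 (0.31), Plvap (0.29), Ramp2 (0.27) and Emcn (0.23). Those most strongly lower were Cldn5 (-5.0), Acvrl1 (-3.01), Robo4 (-2.96), Sox17 (-2.41), Fli1 (-1.94), Sox18 (-1.75), Stab2 (-1.70), Lyve1 (-1.57), Ets1 (-1.54), Klf4 (-1.45) and Flt4 (-1.09). Tie1 (0.03), Ecscr (0.10) and Vwf (0.12) did not pass. Kdr (-0.46), Flt1 (-0.49), Esam (-0.49), Sox7 (-0.44) and Cd34 (-0.62), 5 genes called higher in HT by level, were lower relative to the reference. So were Egfl7 (-0.69) and Erg (-0.74). The fold changes of all these genes by level were below the 0.78 of the reference, so their turn follows from it.

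**Figure D4:**
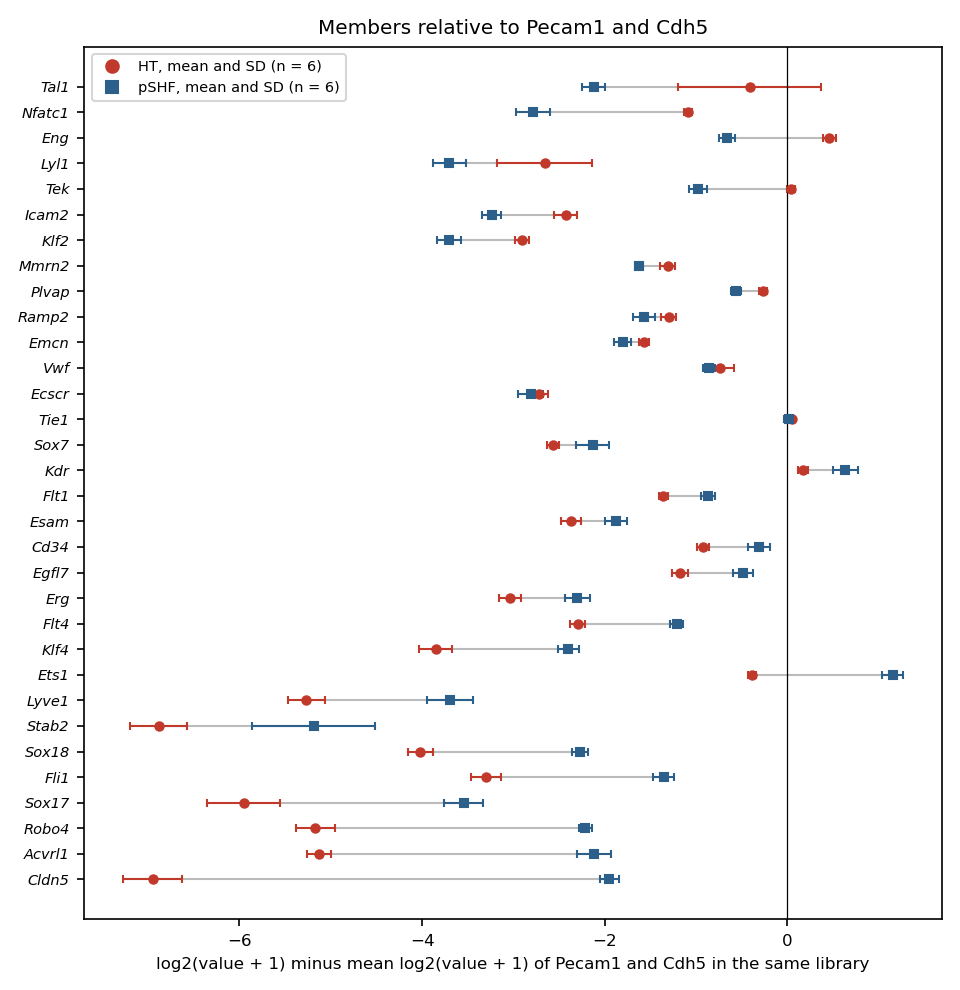
Level of each of 32 genes relative to Pecam1 and Cdh5 within the same library, on a log2 scale, as mean and SD over 6 HT libraries (circles) and 6 pSHF libraries (squares). Genes are sorted by the difference between tissues, from Tal1 and Nfatc1 at the top (1.71 and 1.70) to Cldn5 at the bottom (-5.0). Each difference is the fold change by level less 0.78, so the order is that of the levels.

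To order the genes by level, values were divided by exon length. The shares of one gene in another given above, and the endocardial and vessel medians, were not divided by length and serve only to compare the tissues. Per kilobase of annotated exon, Plvap ranked first in both tissues, at 1546 ± 112 normalized gene counts in HT and 734 ± 35 in pSHF. In HT it was followed by Eng (1261), Cdh5 (1115), Tek (806) and Tie1 (778), and in pSHF by Cdh5 (719 ± 31.0, within the spread of Plvap), Ets1 (565), Tie1 (444) and Egfl7 (429). Cldn5 ranked 31 of 34 in HT (20.8 per kilobase) and 6 in pSHF (393), and Nfatc1 ranked 19 in HT (234) and 32 in pSHF (42.2). Stab2 ranked last in both. Exon length is that of all annotated exons joined, so a gene read mainly from a short transcript is understated.

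The promoters of genes at both ends of the comparison are shown for Eng and Tek, higher in HT, and Cldn5, higher in pSHF. Promoter windows were listed for 17 of the 34 genes, 22 windows in all. Each sequence is the 250 bases before a RefSeq start site (GRCm38.p6, plus strand), with the ETS core letters GGAAG and the SOX letters ACAAT in capitals on either strand (CTTCC and ATTGT on the other).
Eng, chr2:32646345-32646594: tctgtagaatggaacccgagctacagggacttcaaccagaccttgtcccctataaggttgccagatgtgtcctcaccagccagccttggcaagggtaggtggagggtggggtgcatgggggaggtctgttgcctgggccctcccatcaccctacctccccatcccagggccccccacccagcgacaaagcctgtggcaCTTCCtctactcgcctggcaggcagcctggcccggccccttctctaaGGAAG
Tek, chr4:94739039-94739288: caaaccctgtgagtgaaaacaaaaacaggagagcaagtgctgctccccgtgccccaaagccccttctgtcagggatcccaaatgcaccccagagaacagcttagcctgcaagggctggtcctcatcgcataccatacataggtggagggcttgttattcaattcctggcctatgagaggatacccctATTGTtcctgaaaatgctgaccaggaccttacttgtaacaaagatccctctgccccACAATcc
Cldn5, chr16:18776597-18776846: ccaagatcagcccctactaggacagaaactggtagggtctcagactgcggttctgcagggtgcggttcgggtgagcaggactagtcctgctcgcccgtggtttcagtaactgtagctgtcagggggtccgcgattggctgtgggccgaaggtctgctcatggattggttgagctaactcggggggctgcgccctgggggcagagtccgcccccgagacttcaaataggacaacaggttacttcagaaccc
GGAAG occurred in 16 of the 22 member windows (72.7%) and in 64.1% of all 32851 windows, and ACAAT in 6 of 22 (27.3%) and 27.7% of all windows. The longer ETS letters CCGGAA occurred in 2 of 22 (9.09%), in Kdr and Lyl1, and in 12% of all windows. Eng held GGAAG on both strands, Tek ACAAT alone and Cldn5 neither. Letters for GATA factors (GATAA) were in 3 of 22 windows (13.6%, against 22.6%) and for KLF factors (CCACCC) in 8 of 22 (36.4%, against 28.1%). GGAAG and CCGGAA overlap in CCGGAAG. These are matches of letters and do not show binding.

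Genes that act beside the members were read from lists that did not contain them. Over all genes tested, 38.3% were called toward HT and 40.0% toward pSHF, or 26.3% and 54.7% under equal totals. Of 28 other endothelial genes tested, 18 were called toward HT and 7 toward pSHF, with a median log2 fold change of 0.47, or 14 and 9 with a median of 0.23 under equal totals. S1pr1, the sphingosine 1-phosphate receptor of the endothelium, averaged 2468 ± 237 in HT against 423 ± 26.9 in pSHF (2.54), and Entpd1, the ATP-degrading enzyme CD39, averaged 1194 ± 175 in HT and 227 ± 29.9 in pSHF (2.39). Mmrn1, a platelet and lymphatic endothelial protein, averaged 201 ± 36.8 in HT against 666 ± 43.3 in pSHF (-1.74), and Myct1 averaged 108 ± 15.3 and 170.4 ± 12.1 (-0.66). Gpihbp1 fell under the minimum and was not tested. Of 16 other endocardial and cushion genes, 11 were called toward HT and 5 toward pSHF, with a median of 0.83. Hapln1, a link protein of the cardiac jelly (2.89), and Nrg1, the growth factor that endocardium sends to muscle (132.9 ± 19.4 in HT and 24.4 ± 8.57 in pSHF, 2.45), led toward HT. The endocardial marker Npr3 lay between 4033 and 5329 in HT and between 1527 and 1833 in pSHF (1.44). Snai1 (-2.63) and Twist1 (-1.91), factors of mesenchyme in many tissues, led toward pSHF.

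Arterial, venous and lymphatic genes were mixed. Of 17, 9 were higher in HT, 5 in pSHF and 3 passed in neither direction. Their median log2 fold change was 0.18 and turned to -0.07 with equal totals (6 and 8 calls). These counts and those of the signalling list below stand beside 38.3% and 40.0% of all genes tested. With equal totals those shares were 26.3% and 54.7%. Hey2 (2.93), a NOTCH target of arteries and of ventricular muscle, and Gja5 (2.03), a connexin of arteries and of heart muscle, led toward HT. The venous factor gene Nr2f2 averaged 981 ± 77.6 in HT against 3733 ± 394 in pSHF (-1.92), and Foxc1 was also higher in pSHF (-1.01). Heart muscle genes moved with Hey2 and Gja5, with 10 of 10 higher in HT, from Myl2 (10.52) and Nppa (6.94) to Tnni3 (3.50) and Myh6 (3.22). Their part was not tested. Of 27 genes of VEGF, angiopoietin, apelin, Slit and BMP9 and BMP10 signalling, 11 were higher in HT, 15 in pSHF and 1 passed in neither direction, with a median of -0.45, or 8 and 16 with a median of -0.69 under equal totals. Bmp10 (4.72) and Angpt1 (1.40) led toward HT. The apelin receptor gene Aplnr averaged 212 ± 41.5 in HT against 1599 ± 111 in pSHF (-2.93), and its ligand gene Apln averaged 20.1 ± 5.36 and 136 ± 15.8 (-2.74).

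**Figure D5:**
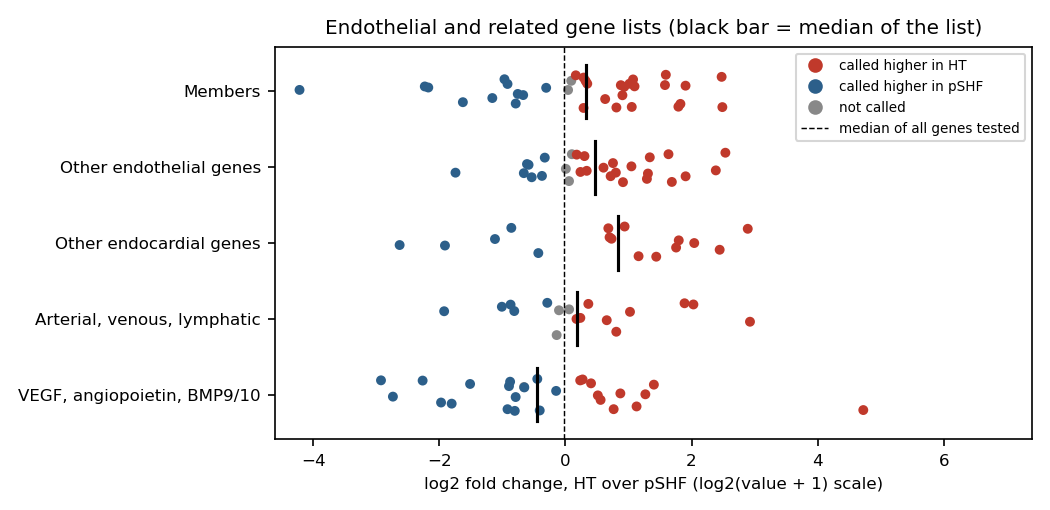
Log2 fold change of each tested gene, HT over pSHF, for the 34 members and 4 related lists, with the median of each list as a black bar and that of all genes tested (-0.02) as a dashed line. Medians run from -0.45 for VEGF, angiopoietin and BMP9/10 signalling to 0.83 for other endocardial genes.

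Within a tissue most members varied little between libraries. The median coefficient of variation was 8.92% in HT and 7.12% in pSHF. In HT the highest library was MR25, MR26 or MR27 for 28 of the 34 genes, and MR30 was the lowest for 19. The same tally was not made over all genes tested, so this order may not be particular to the members. MR25 and MR27 had the lowest erythroid shares in HT (1.66 and 2.36%). Whether blood content lowers the other values was not tested. Without MR28R and MR30, the HT libraries with the most blood, 22 members were called higher in HT and 11 in pSHF. Of all 14909 genes tested, 5599 were then called higher in HT and 5847 in pSHF.

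The 32 genes called here were also called in the authors' deposited table, in the same direction (of all genes with an adjusted p there, 31.7% were higher in HT and 33.9% in pSHF). It rests on the same libraries and scaling and adds no independent evidence. The deposited raw count table held 233865 to 340434 counts per library and 10 to 435 counts per member over all 12 libraries. In edgeR's quasi-likelihood test on it, 6 members passed the count filter and 2 were called, Cdh5 higher in HT (0.68, adjusted p = 0.0181) and Ets1 higher in pSHF (-1.15, adjusted p = 7.9e-05). Of all 3370 genes in that test, 25.2% were called higher in HT and 23.1% higher in pSHF. Eng had 435 of these counts and did not pass there (0.23, adjusted p = 0.261), while its level differed 3.75-fold in the normalized gene counts.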

How the data were processed

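RNA of 6 HT and 6 pSHF samples was made into libraries with a TruSeq kit that selects poly-A RNA and read from one end over 50 bases, per the labels' protocols. STAR, DESeq2 and mm10 are named, per the submitters' processing notes. Their versions, the annotation and the counter are not given here. The deposited comparison table holds a signal per library (normalized gene counts), the authors' log2 fold change with its standard error, a score (Wald statistic), and p-values. The second deposited table holds raw counts. Columns give the tissue and a library code with no replicate number, and only the tissue was used to group them. Depths were rebuilt from the most frequent low value per library, taken as 1 read, and are approximate. The members and lists were chosen with earlier results of these data known.

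limma (version 3.58.1, trend) was fitted on the log2 scale after adding a pseudocount of 1. It covered the 14909 genes whose mean reached 5, with Benjamini-Hochberg adjustment over all of them. The raw counts were tested with edgeR (version 4.0.16) and DESeq2 (version 1.42.0) as alternatives, since they hold about 1% of the rebuilt depth. Other alternatives were the pseudocount, the filter, the scaling of libraries, the trend, the reference genes and leaving out each library. The fits were tested on simulated data. Every member was named, with the 2 largest and 2 smallest called fold changes of each other list (3 genes that this rule names are not reported here) and the ligands and partners of members; the other genes named, Foxa2, Cdh1, Epcam, Npr3, Gpihbp1 and, in the closing section, Alb, were chosen after their values were seen. Older symbols were matched by gene identifier (Figf for Vegfd). Coordinates and exon lengths are those of GENCODE M21 (GRCm38), whose release need not be the authors', and promoters those of RefSeq (GRCm38.p6). R 4.3.3 and pandas 2.3.3 were used.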

Additional observations from a re-analysis of the deposited data

Results flagged for a closer look

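Within a tissue, 2 of 68 sets of 6 values held a library apart from the others by Dixon's test of the gap over the range, at the 95% level. Tie1 in pSHF was lowest in MR13 at 1929.5, with the next library at 2175. Ets1 in pSHF was lowest in MR18 at 4369, with the next library at 4775. Chance gives about 1 such set in 20. Neither value overlapped the HT libraries.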

How the results depend on the processing

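No paired analysis was possible because the columns of the deposited tables carry no replicate number. Of the 34 members, 27 kept their direction and their side of the threshold with equal library totals. Kdr, Flt1, Esam and Sox7 lost their call there, and 3 turned: Egfl7 to -0.15, Erg to -0.20 (gaining a call toward pSHF, as Egfl7 did) and Cd34 to -0.081, or -0.10, -0.15 and -0.029 when erythroid genes were left out of the totals. Leaving out each library gave 21 to 22 members higher in HT and 11 in pSHF, 5590 to 5666 and 5841 to 5949 of all genes, and, relative to Pecam1 and Cdh5, 11 to 12 and 18 members and 1779 to 1925 and 11121 to 11383 genes. The log2 fold change of Erg ranged from -0.0049, without HT library MR27, to 0.0933. Egfl7 passed without HT library MR30 or pSHF library MR13, with TMM scaling, and without MR28R and MR30. With Pecam1 alone as the reference Tie1 (-0.12), Vwf (-0.029) and Ecscr (-0.054) turned and Emcn and Ramp2 lost their call. With Cdh5 alone those first 3 passed. Vwf also passed without HT library MR25 or MR27.

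The raw count table changed the most results, and it held at most 435 counts per member. In it edgeR called 850 genes toward HT and 779 toward pSHF, including 1 and 1 member; 845 and 783 genes with DESeq2 size factors, with 1 and 1 member; 1497 and 1392 without a filter, with 4 and 2 members; and 1183 and 1005 in DESeq2, with 3 and 2 members. Without a filter Emcn (-0.18), Egfl7 (-0.71), Erg (-0.64) and Stab2 (0.067) turned, and in DESeq2 likewise (-0.17, -0.73, -0.69 and 0.083). Sizes differed too among the 6 members in the filtered edgeR test. Eng (0.23 against 1.91 in the main fit) and Plvap (0.52 against 1.07) were smaller and not called. So were Tie1 (0.52 against 0.81) and Kdr (0.19 against 0.32). Cdh5 (0.68 against 0.63) and Ets1 (-1.15 against -0.76) were larger and called. The cause of these differences was not tested. The pseudocounts, filters and the fit without trend changed no member's call. Leaving out MR28R and MR30 was chosen after seeing the data.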

Other observations

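Stab2 varied more between pSHF libraries than any other member, with a coefficient of variation of 49.4%. It stood at 116 in MR17, 77.9 in MR14 and 73.3 in MR16, and at 42.4, 39.7 and 34.0 in MR15, MR13 and MR18. The hepatic genes Afp and Alb split the same libraries the same way. Afp stood at 6056, 3954 and 4264 in the first 3 and at 907, 1506 and 376 in the others, and Alb at 555, 358 and 358 against 69.5, 102 and 24.5. All 9 hepatic genes tested were higher in pSHF, from Afp (-5.55) and Serpina1a (-4.86) to Ttr (-1.93) and Apob (-1.19), with a sum of 36.5 to 1083 in HT and 506 to 7649 in pSHF. In HT, where Afp was highest in MR29 (836) and MR28R (389.5), Stab2 was at 25.3 and 23.8 there and highest in MR25 (47.8). The part of liver tissue in the Stab2 values was not tested.

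Blood precursor genes were split. Of 13 tested, 7 were higher in HT and 6 in pSHF, beside 38.3% and 40.0% of all genes tested. Gfi1b (2.68) and Gata1 (2.63), erythroid and megakaryocyte factors, led toward HT. Among platelet and megakaryocyte genes of the list, named after their values were seen, Itga2b (1.25), Gp9 (1.27), Gp1ba (1.16) and Pf4 (0.85) were higher there and Gp1bb was higher in pSHF (-0.51). Toward pSHF stood Myb (-1.54), Ptprc (-1.33) and, named after their values were seen, Runx1 (-0.90), Spi1 (-0.81) and Kit (-0.64). Gfi1 was under the minimum and was not tested.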
